A study of Mus musculus with 16 samples.

Results

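The genes described here encode the cytosolic ribosomal proteins of the mouse, with a few relatives that share their symbols. They were chosen by symbol alone: Rpl or Rps followed by a digit, plus Rplp0, Rplp1, Rplp2 and Rpsa, without the Rps6k kinases and without pseudogenes, wherever an array probe set carried that single symbol. The rule found 63 of the 19531 genes measured in this way. Of these, 21 belong to the small subunit of the ribosome, 33 to the large subunit, and 9 are paralogs or other genes with a similar name. A further 20 matching symbols, among them Rpl11, Rpl22l1, Rps27 and Rpl39, occurred only in probe sets with several symbols and were not analysed here. Signal had to reach 7.05 on the log2 scale in the group where it was highest, and 59 of the 63 genes did. Rpl3l, Rpl10l, Rpl39l and Rps23rg1 did not and were not tested.

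The ribosome is assembled in the nucleolus from ribosomal RNA and these proteins, which are made in the cytoplasm in amounts that match each other. Most ribosomal protein mRNAs begin with a run of C and T (U in the RNA), the terminal oligopyrimidine or TOP tract, through which mTORC1 and the RNA-binding protein LARP1 set how well they are translated. In the thymus, double-negative cells that have rearranged a T cell receptor beta chain enlarge and divide, and mice without Rpl22, a large subunit protein, have a block of alpha-beta but not of gamma-delta T cell development at this step.

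Gene expression was measured on 16 arrays of total RNA from sorted thymocytes of mice aged 4 weeks, in 8 groups of 2 arrays. B6g7 is the C57BL/6 background with the MHC haplotype of NOD, the strain that develops autoimmune diabetes. On each background, mice without a transgene (non-Tg, with a polyclonal repertoire) were compared with BDC2.5 TCR transgenic mice (BDC), which carry the rearranged receptor genes of a diabetogenic CD4 T cell clone; the labels do not name the promoter that drives them. After depletion of CD4 and CD8 cells with complement, DN2-3 cells were sorted as lineage-negative, CD4-, CD8- and CD25+, and DN4 cells as lineage-negative, CD4-, CD8-, CD44- and CD25-. The groups were therefore B6g7, BDC/B6g7, NOD and BDC/NOD, each as DN2-3 and as DN4 cells. All non-Tg arrays came from female mice, while replicate 1 of every BDC group was male and replicate 2 female, so sex is partly tied to the transgene. Nothing in the labels tells whether both arrays of a group hold RNA of different mice, of pools or of 1 preparation, so each p-value reflects the spread among these samples alone, which may be technical.

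Pyrimidine runs near the start were more frequent in these genes than in all genes. A run counted here may lie anywhere in the window and need not be a TOP tract, which begins the mRNA. Of the start regions, 10 are printed because the results turn on these genes or on their lack of change. RefSeq (GRCm38.p6) gave a start region for 51 of the 63 genes. Within 50 bases on either side of the most upstream start, a run of at least 10 pyrimidines (C or T) on the gene's strand was found in 29 of the 51, or 56.9%, against 17.8% of 17492 protein-coding genes. Either of the words CTTTC or CTTTT, which can lie inside such a run, occurred in 49.0% of the members and 18.9% of all genes on the gene's strand, and in 15.7% and 18.6% on the opposite strand (searched as GAAAG or AAAAG). Each line gives 30 bases of the gene's strand, 5′ to 3′, with the longest pyrimidine run in capitals, or the first of them where runs tie. The Rps27l and Rps3 lines hold a later run of the same length in lower case.
Rps12: ccaccgccggCCTTTTCCCCTgccgccgcc
Rpl14: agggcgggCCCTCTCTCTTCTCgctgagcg
Rps19: cgcccgggaaaccccgtcgTTCCCTTTCCC
Rps15a: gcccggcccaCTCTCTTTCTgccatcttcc
Rps27l: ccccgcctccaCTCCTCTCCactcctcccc
Rps3: tcaTTTCCCatgcaaaacttcatttcccat
Rpl22: cggTTTCTgcaagtatcggaataactgaat
Rps6: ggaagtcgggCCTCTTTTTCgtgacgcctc
Rpl28: gcctctcgtgTCTCTCTTTCCgtctccggc
Rps15: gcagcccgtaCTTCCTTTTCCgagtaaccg

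The first 4 lines are genes that moved in the comparisons described next and hold a run of 10 to 14 pyrimidines. Rps12 lies on the minus strand at chr10:23787182-23787211, Rpl14 on the plus strand at chr9:120571501-120571530, Rps19 on the plus strand at chr7:24884612-24884641 and Rps15a on the minus strand at chr7:118116143-118116172. The next 3 also moved, with longest runs of 9, 6 and 5 bases: Rps27l at chr9:66946053-66946082 (plus), Rps3 at chr7:99483730-99483759 (minus) and Rpl22 at chr4:152324386-152324415 (plus). The last 3 passed no test in any of 17 comparisons of groups, and their runs have 10 or 11 bases: Rps6 at chr4:86857349-86857378 (minus), Rpl28 at chr7:4792952-4792981 (plus) and Rps15 at chr10:80292446-80292475 (plus). These 3 had the highest mean signals of all tested members (13.40, 13.34 and 13.33). Brighter members differed less in the interaction of transgene and stage, with medians of -0.17 for the brightest 19 and -0.51 for the dimmest 20. The runs begin 9 bases into the transcript for Rps12, 26 for Rps15 and 40 for Rps19. They begin upstream of the start by 8 bases for Rpl14, 22 for Rps27l, 15 for Rps15a and 1 for Rps6. For Rps3 and Rpl22 they begin 47 bases upstream, and for Rpl28 3. Not all of these runs reach the start, and whether any is a TOP tract was not tested. Among genes that differed in the interaction of transgene and stage, 15 of 28 had a run of at least 10 pyrimidines (53.6%), and 13 of 19 that did not differ had one (68.4%). A match in these windows is a description of the letters, not of a transcription start in these cells.

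Over all genes, array medians lay between 123.1 and 138.2 intensity units. Replicate 1 of NOD DN2-3 stood apart, with a ratio of the upper to the lower quartile of 6.82, against 7.46 and 7.60 in B6g7 DN4 and 8.30 to 10.3 elsewhere, and a correlation with its replicate of 0.960, against 0.989 to 0.995 in the other pairs; results that rest on it are given with and without it. The replicates of a group feed an estimate of spread that all comparisons share, so leaving out an array can change counts in comparisons that do not use its group. Markers of double-negative thymocytes had the largest sum of the marker lists in every group (7 genes, summed intensity 19970 to 37480). The lists differ in length, so their sums do not rank cell types by signal per gene. In BDC/B6g7 DN4 cells the double-negative sum was 19970 to 20190 over 7 genes, and the gamma-delta sum 13630 to 14670 over 4. Those of gamma-delta T cells summed to 771 to 1081 in non-Tg and 3793 to 14670 in BDC arrays (4 genes), and those of double-positive and mature T cells to 774 to 953 in non-Tg DN2-3, 1653 to 1776 in BDC DN2-3, 1860 to 3699 in non-Tg DN4 and 2956 to 6049 in BDC DN4 (6 genes). The sums for B cells were 504 to 940 over all arrays, for NK cells 283 to 3636 (1 of 5 genes past the filter, highest in BDC/B6g7), for myeloid and dendritic cells 323 to 685, and for erythroid cells 114 to 159. In sorted bulk samples, fewer cells of a type and less RNA per cell cannot be told apart.

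**Figure D1:**
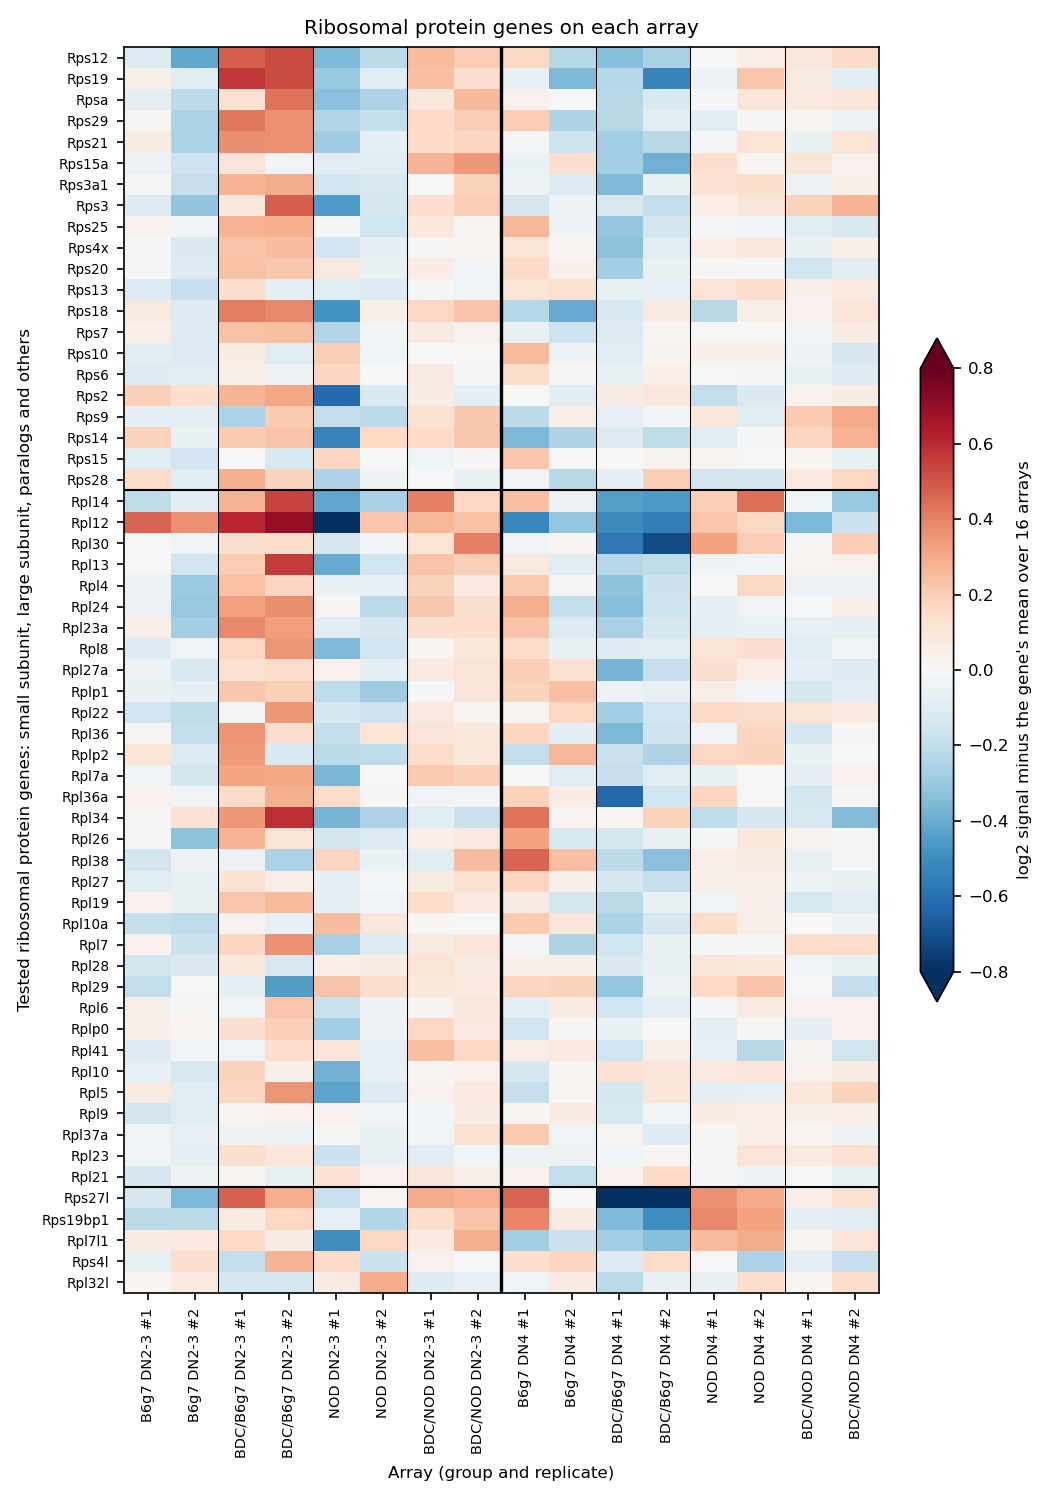
Log2 signal of the 59 tested genes on each of the 16 arrays (columns, DN2-3 left and DN4 right of the thick line), minus the gene's mean over the arrays, in the order small subunit, large subunit, paralogs and others. Colours saturate beyond 0.8 on the log2 scale; the BDC/B6g7 columns are mostly red in DN2-3 and mostly blue in DN4 cells.

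In DN2-3 cells, most ribosomal protein genes were higher with the BDC transgene. Averaged over the strains, 34 of the 59 tested genes were higher and 1 lower in BDC than in non-Tg cells (limma, Benjamini-Hochberg adjusted p under 0.05 over all genes), where 29.8% of all 10689 genes tested were higher and 19.3% lower (49.1% called in all). The median log2 difference was 0.23 for the ribosomal protein genes and 0.05 for all genes. Both subunits took part, with 13 of 21 small subunit and 19 of 33 large subunit genes higher. Other genes whose mean signal was at or above the median of the subunit genes had a median difference of 0.11 (206 genes, 36.9% higher). By signal, the dimmest 20, middle 20 and brightest 19 of the 59 genes had medians of 0.32, 0.25 and 0.08.

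Rps12, a small subunit protein, had the largest difference of the 59 in this comparison. Its log2 signals in BDC DN2-3 cells were 11.24 and 11.28 on B6g7 and 11.01 and 10.96 on NOD, against 10.65 and 10.34 in B6g7 and 10.40 and 10.55 in NOD cells without the transgene. All 4 BDC arrays were above all 4 non-Tg arrays, and the difference was 0.64 ± 0.09 (standard error of the fit, 1.55-fold, adjusted p = 9.93e-05). Rpl14, a large subunit protein, read 8.73 and 9.0 in BDC/B6g7 and 8.86 and 8.62 in BDC/NOD, against 8.25 and 8.37 in B6g7 and 8.04 and 8.20 in NOD. Its BDC arrays were likewise all above the others, with a difference of 0.59 ± 0.10 (1.5-fold, adjusted p = 0.000403). Most genes described by array, here and below, were picked for large called differences without overlap of arrays. Their lack of overlap is therefore not further support.

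Rps27l is a paralog of the small subunit protein Rps27 and a known p53 target. It read 10.77 and 10.59 in BDC/B6g7 and 10.60 and 10.58 in BDC/NOD, against 10.16 and 9.94 in B6g7 and 10.12 and 10.31 in NOD. Each BDC array exceeded each non-Tg array, by 0.50 ± 0.10 on average (1.41-fold, adjusted p = 0.00105). Rps3, a small subunit protein that also acts in DNA repair, read 11.80 and 12.18 in BDC/B6g7 and 11.84 and 11.90 in BDC/NOD, against 11.61 and 11.39, and 11.25 and 11.57, in the non-Tg groups. The groups did not overlap, and the difference was 0.48 ± 0.09 (1.39-fold, adjusted p = 0.0011).

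The other genes that were higher differed by 0.15 to 0.48. They included Rpl13 (0.48 ± 0.08), Rps19, whose human counterpart is mutated in Diamond-Blackfan anaemia (0.47 ± 0.10), Rpsa, the protein also known as the laminin receptor (0.45 ± 0.08), Rpl5, which binds the 5S RNA together with Rpl11 (0.29 ± 0.09), and Rpl22 (0.28 ± 0.08). Of the stalk proteins, which recruit elongation factors, Rplp0 (0.20 ± 0.07) and Rplp1 (0.28 ± 0.06) were higher, and Rplp2 differed by 0.22 ± 0.11 (adjusted p = 0.114). All 3 tested proteins of the tunnel exit, Rpl19, Rpl23a and Rpl26, were higher. Rpl32l alone was lower: it read 8.49 and 8.48 in BDC/B6g7 and 8.52 and 8.56 in BDC/NOD, against 8.64 and 8.71, and 8.69 and 8.93, without the transgene. Its groups did not overlap, and it fell by 0.23 ± 0.07 (adjusted p = 0.022), a call that was lost under 8 of the alternative settings or left-out arrays.

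The difference was seen on both backgrounds. On B6g7, 22 genes were higher and on NOD 18, with no gene lower (0 and 1 at an unadjusted p under 0.05), where 16.8% and 21.5% of all genes were higher and 12.5% and 14.1% lower. The difference between the strains, tested as an interaction, passed for none of the 59 genes (0 higher and 1 lower at an unadjusted p under 0.05; 5 called without replicate 2 of NOD DN2-3), where 0.327% of all genes were called higher and 0.823% lower, 1.15% in all. The average over strains was 31 higher and 1 lower without replicate 1 of NOD DN2-3, 22 higher without replicate 2 of B6g7 DN2-3, 16 higher without the 4 male arrays, and 18 higher and 2 lower, with a median of 0.10, when all arrays were quantile-normalized again. On NOD alone the count fell to 7 higher and 1 lower without replicate 1 of NOD DN2-3, to 4 and 3 without either BDC/NOD array, and to 0 with array weights; on B6g7 it fell to 2 without replicate 2 of B6g7 and to 12 and 6 without either BDC/B6g7 array. Shares over all genes under these settings are not given, here or below. A lower count can therefore not be told apart from a loss of calls over all genes. The summed gamma-delta and mature T cell markers moved with the transgene, as given above, and their part in the result was not tested.

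**Figure D2:**
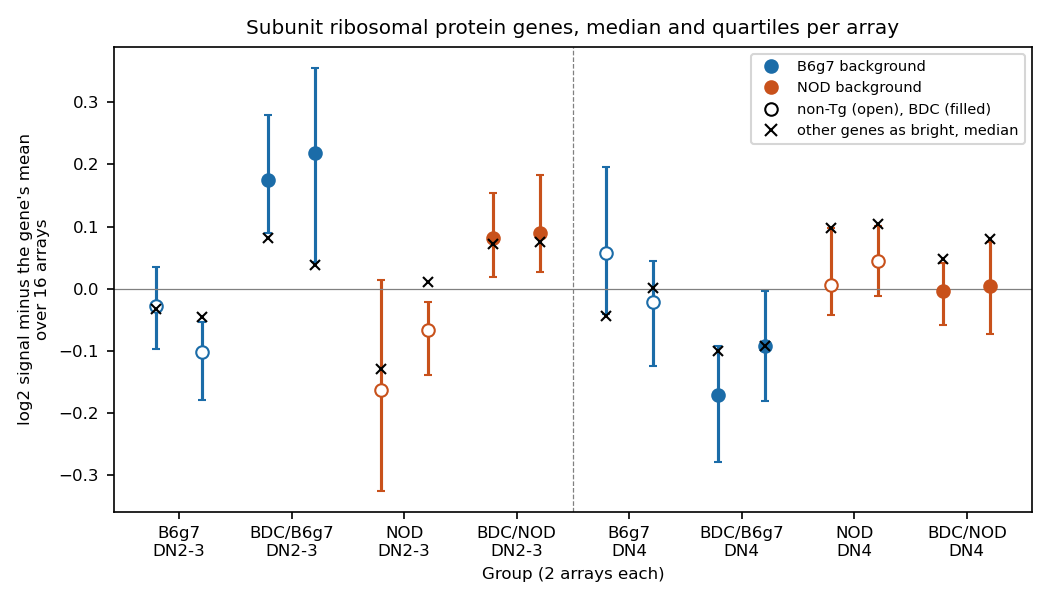
Circles give the median and bars the quartiles over the 54 tested subunit genes, for each array. Each gene's log2 signal was taken minus its mean over the 16 arrays. Circles are open for non-Tg and filled for BDC, blue on the B6g7 and orange on the NOD background. Crosses give the median of 206 other genes whose mean signal was at or above the median of the subunit genes. The BDC/B6g7 medians were 0.17 and 0.22 in DN2-3 and -0.17 and -0.09 in DN4 cells, while both BDC/NOD DN4 medians lay within 0.01 of 0.

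In DN4 cells, the difference with the transgene ran the other way for part of the family. Averaged over the strains, 16 of 59 genes were lower and 1 higher in BDC than in non-Tg cells, where 30.8% of all genes were lower and 28.7% higher (59.6% called in all). The median difference was -0.11, against -0.03 for all genes. By subunit, 10 of 33 large subunit genes and 4 of 21 small subunit genes were lower. The share of ribosomal protein genes that were lower was thus close to that of all genes, while few were higher.

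Rps27l was the gene with the largest decrease. Its signal was 9.29 and 9.33 in BDC/B6g7 DN4 and 10.35 and 10.42 in BDC/NOD DN4, against 10.77 and 10.29 in B6g7 and 10.66 and 10.60 in NOD DN4 cells. The BDC arrays were lower within each strain, and by far the lowest were the 2 BDC/B6g7 arrays; the gene fell by 0.73 ± 0.10 on average (0.601 of the non-Tg signal, adjusted p = 2.27e-05). Rps19bp1, a nucleolar protein that binds Rps19 and is not itself part of the ribosome, read 8.48 and 8.34 in BDC/B6g7 and 8.77 and 8.74 in BDC/NOD, against 9.23 and 8.90, and 9.22 and 9.16. It fell by 0.55 ± 0.08 with no overlap of the groups (adjusted p = 4.58e-05).

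Rpl14 read 8.01 and 8.0 in BDC/B6g7 and 8.42 and 8.15 in BDC/NOD, against 8.70 and 8.41 in B6g7 and 8.65 and 8.90 in NOD DN4 cells. Within each strain the groups did not overlap, and it fell by 0.52 ± 0.10 (adjusted p = 0.000549). Rpl30, a large subunit protein, read 8.48 and 8.34 in BDC/B6g7 and 9.04 and 9.25 in BDC/NOD, against 9.02 and 9.07, and 9.38 and 9.26. It fell by 0.40 ± 0.08 (adjusted p = 0.000571), and on NOD by 0.17 ± 0.11 only (adjusted p = 0.293). Rps28, the single gene that was higher (0.23 ± 0.08, adjusted p = 0.0317), had arrays that overlapped between the groups.

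On B6g7, 17 genes were lower in BDC DN4 cells and on NOD 2, Rpl14 (-0.49 ± 0.14) and Rps19bp1 (-0.44 ± 0.11), where 29.2% and 14.8% of all genes were lower, 30.1% and 10.6% higher, and 59.3% and 25.3% called in all; none of the 59 was higher (0 and 1 at an unadjusted p under 0.05). The difference between strains passed for Rps27l alone, at 0.97 ± 0.19 (adjusted p = 0.00382), where 9.2% of all genes were called higher and 10.9% lower, 20.1% in all. The gamma-delta and the double-positive and mature T cell sums were highest in the BDC/B6g7 DN4 arrays (13630 to 14670 and 5062 to 6049), and their part in the result was not tested. Without the 4 male arrays 7 genes were lower on average over the strains, and with array centring 9 were lower on B6g7, as were 10 without replicate 1 of BDC/B6g7 DN4. Without replicate 1 of NOD DN2-3 the averaged count rose to 21 lower and 4 higher, and the count for the difference between strains to 5, as it did without replicate 2; on NOD, leaving out any 1 array of the DN4 groups left 0 or 1, and leaving out either NOD DN2-3 array gave 4 (3 lower, 1 higher). That between strains lay between 2 and 4 without replicate 2 of B6g7 or BDC/B6g7 DN4 or either BDC/NOD DN2-3 array.

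The change of the transgene difference from DN2-3 to DN4 was tested directly, as the transgene difference in DN4 minus that in DN2-3, averaged over strains. It was lower for 35 of 59 genes and higher for none (0 higher at an unadjusted p under 0.05), where 31.5% of all genes were lower and 26.3% higher (57.8% called in all). The median was -0.34, against -0.04 for all genes. For the 206 other genes at or above the median signal of the subunit genes it was -0.17, with 42.2% lower and 18.4% higher. For the brightest 19 of the 59 genes it was -0.17 as well. Both subunits contributed, with 12 of 21 small subunit genes (median -0.34) and 21 of 33 large subunit genes (median -0.39). Of the 59 genes, 11 were called both higher with the transgene in DN2-3 and lower in DN4 cells (18.6%), as were 13% of all genes tested.

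The largest values were those of Rps27l (-1.23 ± 0.14, adjusted p = 5.79e-06) and Rpl14 (-1.10 ± 0.14, adjusted p = 1.94e-05). Rps19bp1 followed at -0.88 ± 0.11 (adjusted p = 1.63e-05) and Rps12 at -0.73 ± 0.13 (adjusted p = 0.000273). In DN4 cells Rps12 read 10.42 and 10.50 in BDC/B6g7 and 10.85 and 10.91 in BDC/NOD, against 10.92 and 10.53 in B6g7 and 10.76 and 10.81 in NOD. The BDC arrays were lower on B6g7 (-0.27 ± 0.13, adjusted p = 0.0833) and higher on NOD (0.09 ± 0.13, adjusted p = 0.66), and neither difference was called, whereas Rps27l, Rpl14 and Rps19bp1 were called lower in DN4 cells on average over the strains. Rpl22 had a value of -0.46 ± 0.11 (adjusted p = 0.00262). Its signals were 9.27 and 9.63 in BDC/B6g7 and 9.36 and 9.30 in BDC/NOD DN2-3 cells, against 9.12 and 9.08, and 9.14 and 9.12, without the transgene. In DN4 cells they were 9.01 and 9.12 in BDC/B6g7 and 9.39 and 9.36 in BDC/NOD, against 9.30 and 9.45, and 9.43 and 9.43. The transgenic DN2-3 arrays were thus all higher, and in DN4 cells BDC/B6g7 alone was set apart from the other groups; the DN4 difference averaged over strains was -0.18 ± 0.08 (adjusted p = 0.0552).

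The count of 35 became 36 without replicate 1 of NOD DN2-3 (35 lower and 1 higher), 26 after quantile normalization again (24 lower and 2 higher) and 15 lower without the 4 male arrays. The genes with less signal carried most of the calls: 17 of the 20 dimmest tested genes, 12 of the middle 20 and 6 of the brightest 19 were called, with median differences of -0.51, -0.39 and -0.17.

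**Figure D3:**
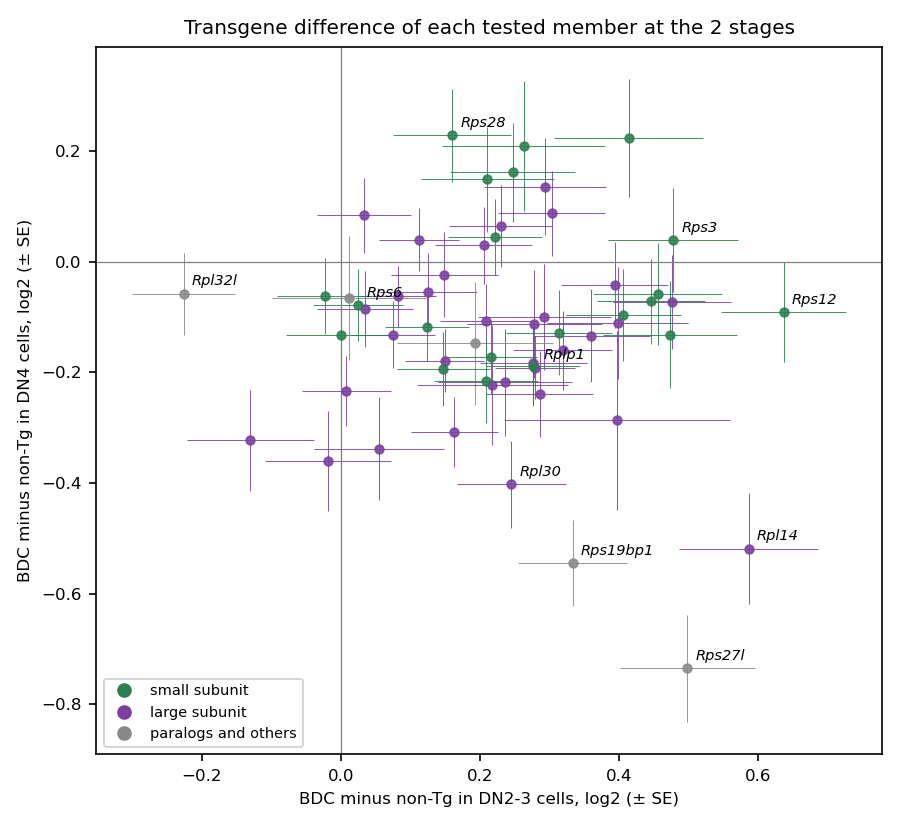
Log2 difference of BDC minus non-Tg cells averaged over strains in DN2-3 (horizontal) and DN4 cells (vertical), with standard errors of the fit, for the 59 tested genes coloured by role. Most points lie right of 0, and Rps27l, Rpl14 and Rps19bp1 lie far below 0 on the vertical axis; points of the 2 axes come from different arrays.

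The ribosomal protein genes that differed between the stages were higher in DN4 in polyclonal cells, on average over the strains, and lower in transgenic cells. In non-Tg cells 12 of 59 genes were higher in DN4 than in DN2-3 cells, with none lower (0 at an unadjusted p under 0.05), where 26.6% of all genes were higher and 21.5% lower (48.1% called in all); the median was 0.11, against 0.03. In BDC cells 28 genes were lower in DN4 and none higher (0 at an unadjusted p under 0.05), where 29.1% of all genes were lower and 22% higher (51.1% called in all); the median was -0.21, against -0.04. The share higher in non-Tg cells was thus below that of all genes, and the share lower in BDC cells above it. Of the 206 other bright genes, 34% were higher in non-Tg cells (median 0.11) and 37.9% lower in BDC cells (median -0.09). Of the brightest 19 of the 59 genes, 1 was called in non-Tg cells (median 0.08) and 4 in BDC cells (median -0.10). Of the 12 genes that were higher in non-Tg cells, 9 were lower in BDC cells; these 9 are 15.3% of the 59 genes, and 16.1% of all genes tested had both calls. The test of the difference between the 2 stage changes is the interaction given above, which uses the same 8 groups.

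In non-Tg cells, Rps19bp1 read 8.62 and 8.62 (B6g7) and 8.77 and 8.60 (NOD) in DN2-3, and 9.23 and 8.90, and 9.22 and 9.16, in DN4. The stages did not overlap, with a difference of 0.47 ± 0.08 (adjusted p = 0.000259). Rps27l was higher in DN4 by 0.45 ± 0.10 (adjusted p = 0.0019) and Rpl14 by 0.45 ± 0.10 (adjusted p = 0.00235), both without overlap within a strain. Rpl22 was higher by 0.29 ± 0.08 (1.22-fold, adjusted p = 0.00715), with all 4 DN4 arrays above all 4 DN2-3 arrays. On B6g7, 7 genes were higher and 1 lower (Rpl12, -0.83 ± 0.23), where 17.8% of all genes were higher, 25% lower and 42.8% either. On NOD 11 were higher and none lower (0 at an unadjusted p under 0.05), where 26.3% of all genes were higher and 12.3% lower, 38.6% in all. The averaged count of 12 was 13 higher and 3 lower without replicate 1 of NOD DN2-3, 7 without replicate 2 of B6g7 DN2-3 or without the male arrays, 6 with array weights, 21 after centring, and 6, with a median of 0.03, after quantile normalization again. On NOD alone 3 were higher without replicate 1 of NOD DN2-3 and 20 without replicate 2, and 3 and 2 without either NOD DN4 array; on B6g7 the count was 4 without either B6g7 DN2-3 array, 1 without replicate 1 of B6g7 DN4, and 15 without either NOD DN2-3 array.

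In BDC cells more of the genes were called on the B6g7 than on the NOD background. On B6g7, 34 genes were lower in DN4 than in DN2-3 cells, with a median of -0.37, and none higher (0 at an unadjusted p under 0.05), where 30.4% of all genes were lower and 20.4% higher, 50.8% in all. On NOD none was called, with 6 lower and 0 higher at an unadjusted p under 0.05 and a median of -0.12, where 3.41% of all genes were lower and 7.67% higher, 11.1% in all. Rps27l fell by 1.37 ± 0.14 on B6g7 (adjusted p = 3.36e-06) and by 0.20 ± 0.14 on NOD (adjusted p = 0.401). The test of this difference between strains, a comparison added after the results were seen, passed for 5 genes in which the NOD change was less negative, where 12.2% of all genes were called in that direction, 3.55% in the other and 15.8% in all. These were Rps27l (1.17 ± 0.19, adjusted p = 0.00142), Rps19 (0.73 ± 0.19, adjusted p = 0.021), Rps12 (0.70 ± 0.18, adjusted p = 0.0188), Rpl30 (0.62 ± 0.16, adjusted p = 0.017) and Rps4x (0.43 ± 0.13, adjusted p = 0.0436).

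Rps19 shows the pattern on its arrays. In BDC/B6g7 it read 10.04 and 9.996 in DN2-3 and 9.25 and 8.94 in DN4 cells, and in BDC/NOD 9.72 and 9.61 in DN2-3 and 9.55 and 9.39 in DN4 cells. The stages were apart on both backgrounds, and the gap on B6g7 was larger (-0.92 ± 0.14, against -0.19 ± 0.14 on NOD). Rpl30 in BDC cells read 9.18 and 9.20 on B6g7 and 9.16 and 9.45 on NOD in DN2-3, and 8.48 and 8.34, and 9.04 and 9.25, in DN4; the stages overlapped on NOD.

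Rpl12, a large subunit protein at the base of the stalk, had the largest average decrease between stages in BDC cells, -0.85 ± 0.16 (adjusted p = 0.00071). It read 9.26 and 9.35 in BDC/B6g7 and 8.92 and 8.89 in BDC/NOD DN2-3 cells, against 8.15 and 8.10, and 8.29 and 8.48, in DN4 cells. The stages were apart on both backgrounds. In non-Tg cells its signals were 9.12 and 9.02 in B6g7 DN2-3 and 8.13 and 8.35 in B6g7 DN4, but 7.81 and 8.87 in NOD DN2-3 and 8.88 and 8.82 in NOD DN4. The single low value of 7.81 came from replicate 1 of NOD DN2-3. Without the 4 male arrays 10 genes were lower in BDC/B6g7 and 7 in the average over strains, and the count for the difference between strains became 0; it became 12 without either NOD DN2-3 array, 16 with array weights, 2 without replicate 2 of BDC/B6g7 DN2-3, either BDC/NOD DN2-3 array or replicate 2 of BDC/NOD DN4, and 3 without replicate 1 of BDC/B6g7 or of BDC/NOD DN4. In the BDC/NOD stage comparison, array weights gave 9 lower and leaving out either NOD DN2-3 array gave 2.

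**Figure D4:**
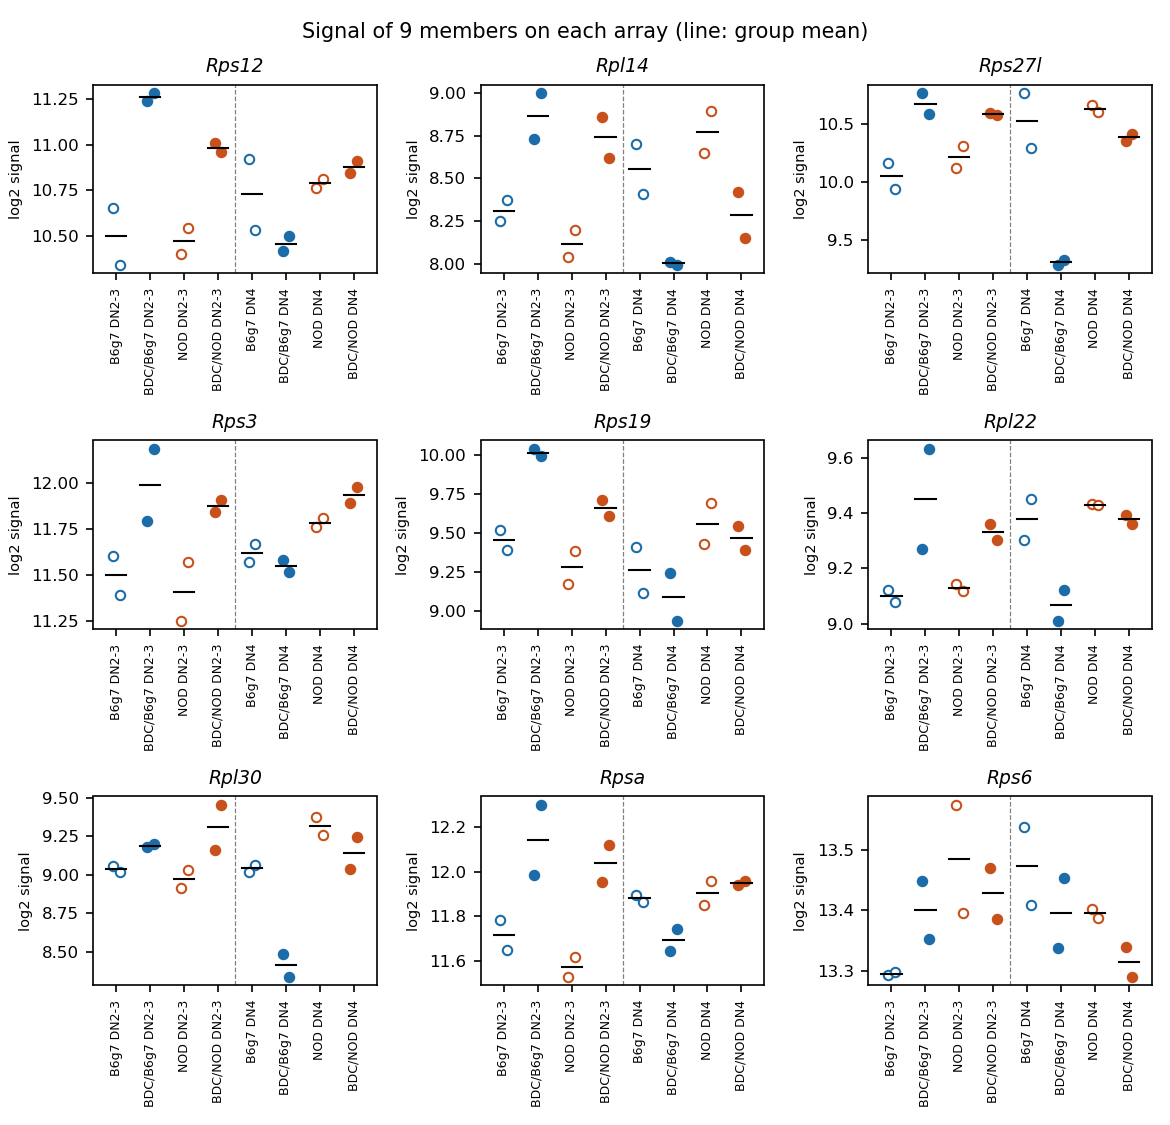
Log2 signal of 9 ribosomal protein genes on every array, by group (open, non-Tg; filled, BDC; blue, B6g7 background; orange, NOD background; line, mean of the 2 arrays; each panel has its own scale, which does not start at 0). Rps12, Rpl14, Rps27l, Rps3, Rps19, Rpl22 and Rpsa are higher in BDC than in non-Tg DN2-3 cells on both backgrounds. Rps6, which was not called, is slightly higher on B6g7 (13.45 and 13.35 against 13.29 and 13.30) and is not higher on NOD.

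Between the strains few ribosomal protein genes differed. Averaged over the 4 pairs of groups with the same genotype and stage, 6 of 59 were higher and 3 lower in NOD than in B6g7, where 26.8% and 14.9% of all genes were (41.6% called in all). The median was 0.02 for the family and 0.04 for all genes. The 3 lower genes kept their order in every pair of groups, while the arrays of the 6 higher genes (Rps27l, Rpl30, Rps15a, Rpl29, Rps19bp1 and Rpl10a, 0.13 to 0.31) overlapped in at least 1 pair. The share of all genes that kept their order in every pair was not counted, so nothing is concluded from this contrast.

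Rpl34, a large subunit protein, read 9.76 and 9.88 in NOD and 10.14 and 10.25 in B6g7 DN2-3, and 10.05 and 9.96 in BDC/NOD and 10.48 and 10.72 in BDC/B6g7 DN2-3. In DN4 cells it read 9.93 and 9.997 in NOD against 10.57 and 10.15 in B6g7, and 10.003 and 9.79 in BDC/NOD against 10.15 and 10.31 in BDC/B6g7. Every NOD array was below every B6g7 array of its genotype and stage, and the gene was lower in NOD by -0.43 ± 0.07 (0.744 of the B6g7 signal, adjusted p = 0.000239). Rps2, a small subunit protein, was lower by -0.24 ± 0.06 (adjusted p = 0.00806). Its gap was widest in non-Tg DN2-3 cells (12.10 and 12.60 in NOD, 12.91 and 12.85 in B6g7). The value of 12.10 came from replicate 1 of NOD DN2-3, which stood apart over all genes. Without that array Rps2 was not called in non-Tg DN2-3 cells. The gap was -0.30 ± 0.13 in BDC DN2-3 and only -0.03 ± 0.13 in BDC DN4 cells. The stalk protein Rplp1 was lower by -0.15 ± 0.04 (adjusted p = 0.00971), for example at 12.46 and 12.38 in NOD and 12.61 and 12.58 in B6g7 DN2-3 cells. Each of these 3 genes was measured in both strains with the same array probes, and whether the strains differ in sequence under the probes was not tested.

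In single pairs of groups, 2 genes differed in non-Tg DN2-3 (Rpl10a higher at 0.37 ± 0.09, Rps2 lower at -0.53 ± 0.13), where 5% of all genes were higher and 5.58% lower, 10.6% in all. In BDC DN2-3 Rpl34 alone was called, as lower (-0.60 ± 0.14), where 3.53% of all genes were higher and 5.66% lower, 9.19% in all. In non-Tg DN4 Rpl7l1 alone was called, as higher (0.50 ± 0.16), where 14% of all genes were higher and 4.75% lower, 18.7% in all. In BDC DN4, where 25.8% of all genes were higher and 15.3% lower in NOD (41% called in all), 8 were higher and none lower (1 at an unadjusted p under 0.05): Rps27l (1.08 ± 0.14), Rpl30 (0.73 ± 0.11), Rps12, Rps15a, Rps3, Rps19, Rps19bp1 and Rpl22 (0.31 to 0.42). That count was 16 called (15 higher, 1 lower) without either NOD DN2-3 array, 5 without replicate 1 of BDC/B6g7 DN4, 3 without either BDC/NOD DN4 array, 2 when the 4 male arrays were left out, and 23 under array weights; the average over the 4 pairs also gave 2 (1 higher, 1 lower) when the male arrays were left out. For non-Tg DN2-3, no gene was called without replicate 1 of NOD DN2-3 or without either B6g7 DN2-3 array, and 14 were (11 lower) without replicate 2 of NOD DN2-3. With single arrays left out, counts in BDC DN2-3 lay between 0 (replicate 2 of BDC/B6g7 or either array of BDC/NOD DN2-3) and 3 (either NOD DN2-3 array), and in non-Tg DN4 between 0 (all but 3 of the 16 arrays) and 6 (either NOD DN2-3 array). In non-Tg DN4 the family's median was 0.02, against 0.13 for all genes. After quantile normalization again the family's median was -0.04, against 0.02 for all genes.

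**Figure D5:**
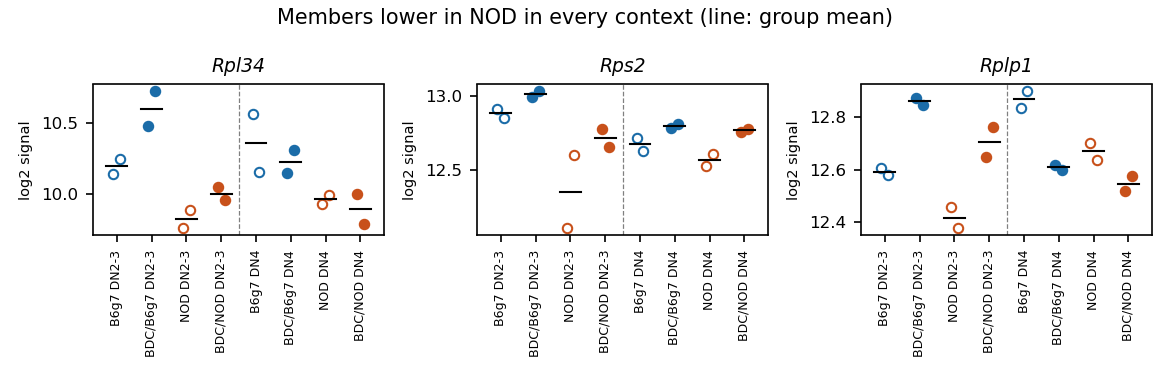
Log2 signal on every array of the 3 ribosomal protein genes that were lower in NOD on average, by group (open, non-Tg; filled, BDC; blue, B6g7 background; orange, NOD background; line, mean of the 2 arrays; scales differ and do not start at 0). The orange points lie below the blue points of the same genotype and stage in all 4 pairs, most narrowly for Rps2 in BDC DN4 cells.

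Over the 17 comparisons of groups, 46 of the 59 tested genes were called at least once (78%, against 90% of all genes tested) and 13 never: Rpl6, Rpl9, Rpl21, Rpl23, Rpl28, Rpl37a, Rpl41, Rplp2, Rps4l, Rps6, Rps10, Rps14 and Rps15. Rps6, the small subunit protein that S6 kinase phosphorylates, had the highest mean signal of the tested members and read 13.29 to 13.57 over the 16 arrays. Its transgene difference was 0.02 ± 0.06 in DN2-3 and -0.08 ± 0.06 in DN4 cells (adjusted p = 0.777 and 0.315). The correlation of a gene with the median of the other subunit genes over the 16 arrays, which share their normalization and their groups, ran from -0.30 (Rpl32l) to 0.95 (Rps12), with a median of 0.66; it was above 0.5 for 39 of 59 genes and below 0 for 7. After Rps12, the genes most like the family's median were Rps21, Rpl13, Rpl7a, Rps4x, Rpsa and Rps29 (0.90 to 0.94), and those least like it were Rpl32l, Rpl29, Rps15 and Rpl21 (-0.30 to -0.21). The standard deviation between group means had a median of 0.15 over the family and 0.24 over all genes tested, and that between replicates 0.11 and 0.12.

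Ribosomal protein genes have many processed pseudogenes with nearly the same sequence, and probe sets of some may also read RNA from these copies, so single values are uncertain to that extent. The 63 genes had 201 probe sets, and 38 had more than 1, of which the brightest was used; Rps27l, Rpl14, Rps19, Rps3, Rpl22, Rpl30, Rps19bp1 and Rpl34 each had 1. Among genes with several, the other probe sets had the sign of the called one in 81 of 81 cases for the transgene in DN2-3, 29 of 30 in DN4, 75 of 75 for the interaction of transgene and stage, 20 of 20 and 73 of 73 for stage in non-Tg and BDC cells, and 6 of 6 for strain. Probe sets of a gene were read on the same arrays, so their agreement in sign is not independent support. The brightest probe set of Rps12, which has 6, was 10475435.

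Other genes of protein synthesis are given for comparison, by the lists named in the processing section, with counts and differences averaged over the strains. Of 20 ribosome biogenesis genes, which act in the nucleolus on ribosomal RNA, 16 were higher and 1 lower with the transgene in DN2-3 cells, and 18 were lower in DN4 cells. The interaction of transgene and stage was negative and called for 19 of the 20, with a median of -0.91, against -0.34 for the ribosomal protein genes. Gnl3 (nucleostemin) differed by 0.24 ± 0.06 in DN2-3 and by -1.05 ± 0.06 in DN4 cells, and Fbl, the methyltransferase fibrillarin, by 0.43 ± 0.07 and -0.64 ± 0.07. Both DN4 decreases were larger on B6g7. There Gnl3 read 8.69 and 8.53 in BDC against 10.33 and 10.22 in non-Tg cells. On NOD it read 9.86 and 10.01 against 10.40 and 10.32. Fbl read 9.45 and 9.53 against 10.60 and 10.68 on B6g7, and 10.48 and 10.46 against 10.69 and 10.51 on NOD. Myc, which drives ribosome biogenesis, was lower at both stages (-0.52 ± 0.15 and -0.93 ± 0.15), and its interaction was not called (adjusted p = 0.13). In DN4 cells Myc read 9.37 and 9.41 in BDC/B6g7 against 11.37 and 10.57 in B6g7. On NOD it read 10.47 and 10.57 against 10.88 and 10.70.

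For the eIF3 subunits, which load the small subunit onto mRNA, 7 of 11 were higher in DN2-3 and 9 of 11 lower in DN4 cells with the transgene, and 9 of 11 were called in the interaction (median -0.54). Other initiation factors gave 6 of 12 higher in DN2-3, 7 of 12 lower in DN4 and 10 of 12 in the interaction (median -0.67). Of 10 elongation factors and other TOP mRNAs, 4 were higher in DN2-3, 6 lower and 1 higher (Eef2, 0.44 ± 0.15) in DN4, and 6 negative in the interaction. In that list Eef1d (-1.13 ± 0.11) and Npm1 (-1.14 ± 0.15) had the largest interaction, while Eef1a1 (-0.07 ± 0.10) and Tpt1 (0.05 ± 0.09) were not called. Fau, a small subunit protein outside the symbol rule, was higher with the transgene in DN2-3 cells (0.25 ± 0.08, adjusted p = 0.0244) and not called in DN4 cells (0.05 ± 0.08).

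Genes of the mTORC1 pathway and TOP regulation showed no common direction, with 3 higher and 3 lower of 11 in the interaction. Larp1, which binds the TOP tract, had a value of -0.50 ± 0.10 (adjusted p = 0.00105) and was lower with the transgene in DN4 cells (-0.39 ± 0.07). Its DN4 signals were 11.535 and 11.65 in BDC/B6g7 against 12.18 and 12.19 in B6g7. On NOD they were 11.99 and 11.96 against 12.17 and 12.14. Pdcd4, an inhibitor of the initiation helicase eIF4A, was higher with the transgene in DN4 cells by 1.21 ± 0.12 (adjusted p = 1.27e-06). Of 6 p53 response genes, which stalled ribosome assembly can induce, 1 was higher and 2 lower with the transgene in DN2-3 cells, and 2 were higher and 2 lower in DN4 cells. Mdm2, the inhibitor of p53 that free Rpl5 and Rpl11 bind, differed by 0.02 ± 0.07 in DN2-3 and 0.29 ± 0.07 in DN4 cells (adjusted p = 0.836 and 0.00197).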

How the data were processed

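Each of the 16 samples, 2 in each of 8 groups, was run on its own Affymetrix mouse gene array. The authors deposited intensities on a linear scale, from 5.82 to 21466, made with RMA in Affymetrix Power Tools per the submitters' processing notes; versions are not given in the sources used here. RMA usually makes the distributions of all arrays alike, which removes a shift common to all genes, yet these arrays still differed in their quartile ratios (6.82 to 10.3), so normalizing again was tried. The number of arrays limits the precision.

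Of 25108 probe sets, 21157 had 1 gene symbol, 1341 several and 2610 none; the brightest 1-symbol probe set stood for each of 19531 genes. After log2, 10689 genes reached 7.05 in their highest group. Group means were fitted to all arrays in R (version 4.3.3) by limma (version 3.58.1), with 8 residual and 5.06 prior degrees of freedom, with Benjamini-Hochberg adjustment over all genes in each of 21 comparisons and a threshold of 0.05. The pipeline was tested on simulated data. Errors are standard errors of the fit.

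The genes, the lists and the comparisons were chosen with earlier results of these data known. Array values were given for Rpl22, Rps27l and, in each averaged comparison, up to 4 genes each way with the largest called difference whose arrays did not overlap between the compared groups in either strain (for strain, in any of the 4 pairs); for interactions up to 4 each way without that condition. Any other member could be named, and of the other lists up to 4 called genes per comparison; Rpsa, Rps28, Rps6 and several genes of the other lists (Fbl, Larp1, Mdm2 and those without a call) were singled out after their values were seen. Lists of ribosome biogenesis, eIF3, initiation, elongation and TOP, mTORC1 and p53 response genes, and of cell type markers, were written by hand; stroma markers summed to 600 to 811 units. Alternatives were no filter, every probe set, the mean of a gene's probe sets, quantile normalization again, centring on array medians, a replicate block, sex as a term, array weights, no male arrays, and each array left out; the mean of probe sets and the comparison of strain by stage in BDC cells were added after seeing the data.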

Additional observations from a re-analysis of the deposited data

Results flagged for a closer look

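The following results are listed because a test of the difference between groups, an interaction term in limma, passed in the ribosomal protein genes. The transgene difference changed between DN2-3 and DN4 cells for 35 of 59 genes, all lower, where 31.5% of all genes were lower and 57.8% were called in either direction. Among the genes named in the text this change was -1.23 for Rps27l, -1.10 for Rpl14, -0.88 for Rps19bp1, -0.73 for Rps12 and -0.46 for Rpl22 on the log2 scale. The transgene difference in DN4 cells differed between the strains for 1 of 59 genes, Rps27l, at 0.97, where 20.1% of all genes were called. The stage change in BDC cells differed between the strains for 5 of 59 genes, where 15.8% of all genes were called; among the 5 were Rps27l at 1.17, Rps19 at 0.73, Rps12 at 0.70 and Rpl30 at 0.62. Groups of 2 arrays are too small for a test of single values as outliers; replicate 1 of NOD DN2-3, which stood apart over all genes, is described with the arrays.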

How the results depend on the processing

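The counts of ribosomal protein genes called were recomputed under each alternative for 21 comparisons, and a count within 1.5 times the reported one was taken as the same; where it was not, the cause was not tested. Using every probe set or the replicate number as a block moved none of the 21 counts by more (with the block 34 for the transgene in DN2-3, 33 higher and 1 lower, 21 on NOD, and 35 for transgene by stage); deviations of replicate 1 arrays correlated at -0.25 to 0.58 between groups, over 0.1 in 12 of 28 pairs of groups and not in the rest, so the numbers were not taken as pairs. Averaging a gene's probe sets moved the strain count in non-Tg DN4 to 2, and sex as a term moved it to 0. Without the filter the counts were 14 and 8 for the transgene in B6g7 and NOD DN2-3, 5 for stage in non-Tg NOD, and 0 and 5 for strain in non-Tg and BDC DN4. Quantile normalization again gave 20 for the transgene in DN2-3 (13 on B6g7, 8 on NOD), 6 for stage in non-Tg cells (4 on NOD), 1 for stage in BDC/NOD, and 3 for strain by transgene in DN4 and 3 for strain by stage in BDC; it moved the strain median from 0.02 to -0.01. Centring gave 9 for the transgene in B6g7 DN4, 21 for stage in non-Tg cells (22 on NOD) and 3 for strain in non-Tg DN4. Array weights gave 0 and 7 for the transgene in NOD DN2-3 and DN4, 6 for stage in non-Tg cells (13 on B6g7, 0 on NOD), 9 for stage in BDC/NOD, 0, 4, 3 and 23 for strain in non-Tg DN2-3, BDC DN2-3, non-Tg DN4 and BDC DN4, 4 for strain by transgene in DN4 and 16 for strain by stage in BDC. Leaving out the male arrays left a lone array in every BDC group, assumed to vary like the rest, and gave 16 and 7 for the transgene in DN2-3 and DN4 (6 and 6 on B6g7, 1 and 0 on NOD), 7 for stage in non-Tg cells (3 on B6g7, 3 on NOD) and 7 in BDC cells (10 on B6g7), 15 for transgene by stage, 2 for strain on average (0, 0, 0 and 2 in the 4 pairs), and 0 for strain by transgene in DN4 and for strain by stage in BDC. With each array left out in turn, counts ranged from 22 to 37 for the transgene in DN2-3 (2 to 30 on B6g7, 3 to 24 on NOD), 12 to 25 in DN4 (10 to 19 on B6g7, 0 to 4 on NOD) and 30 to 41 for transgene by stage. For stage they ranged from 7 to 18 in non-Tg cells (1 to 15 on B6g7, 2 to 20 on NOD) and 25 to 35 in BDC cells (23 to 37 on B6g7, 0 to 2 on NOD), and for strain from 6 to 11 (0 to 14 in non-Tg DN2-3, 0 to 3 in BDC DN2-3, 0 to 6 in non-Tg DN4, 3 to 16 in BDC DN4). They were 0 to 5 for strain by transgene in DN2-3, 1 to 5 in DN4, and 2 to 12 for strain by stage in BDC. Of the tests of genes named in the text repeated under these settings, 930 kept direction and call, 33 lost the call, 12 gained one and 0 reversed. With 2 arrays a group, differences close to the spread between replicates could not be resolved, and signals under 7.05 were not tested.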
